A study of Mus musculus with 6 samples.

Results

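DNA replication and S-phase genes were examined in RNA sequencing data of mouse dendritic cells grown from bone marrow. The group holds 36 genes named for their roles in copying the genome, and rows were taken where the gene name matched exactly. All 36 were found among the 30587 rows of the deposited table, and all 36 were among the 13249 genes with enough reads to test. The KO libraries (n = 3) came from C57BL/6 mice that carried CD11c-Cre and floxed Hif2a alleles, and the WT libraries (n = 3) from C57BL/6 mice with the floxed alleles and no Cre. Hif2a, official symbol Epas1, encodes the hypoxia-inducible transcription factor HIF-2α. Cre is driven by the promoter of CD11c (Itgax), which is active in dendritic cells and some macrophages, so deletion is limited to cells that had turned that promoter on. Cells of both genotypes had been kept for 24 h with DMOG, which blocks the hydroxylases that mark HIF for degradation, and then for 4 h with the glycolipid α-GalCer. Every value is therefore from cells given both agents. HIF protein was not measured in these data, and the effect of either agent was not analysed here. Whether the 3 libraries of a genotype stand for different mice or cultures is not in the labels, and p-values here reflect only how far libraries differed, which may be technical.

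Before a cell copies its DNA, the loaders Cdc6 and Cdt1 place a ring of the MCM2 to MCM7 proteins on replication origins, and Cdc45, the GINS proteins and Mcm10 turn that ring into a moving helicase. DNA polymerase α and its primase lay down primers, polymerases δ and ε extend them around the PCNA sliding clamp that replication factor C loads, and Fen1 and Lig1 trim and join the lagging strand. Nucleotides come from ribonucleotide reductase, thymidylate synthase and thymidine kinase, and many of these genes are switched on at the G1/S transition by E2F transcription factors and cyclin E. Dendritic cells leave the cell cycle as they mature, and cultures grown from bone marrow can still hold dividing precursors.

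Total counts were 16826800 to 17884160 per KO library and 14668641 to 17041448 per WT library. KO 1 and WT 2 stood apart, since 22275 rows held at least 1 read in KO 1 and 25408 did in WT 2, against 18763 to 19513 in the other 4 libraries. Epas1 had 175, 214 and 198 reads in KO and 339, 352 and 349 in WT, a log2 fold change of -0.98 ± 0.12 (SE; edgeR adjusted p = 3.45e-05). The counts are per whole gene, and which exons are floxed is not in the labels. Levels are CPM, the reads of a gene relative to all reads of its library after TMM scaling, and a gene is said to have risen or fallen in KO where its edgeR adjusted p, over all genes tested, was under 0.05. Of 12 dendritic cell markers 11 were tested. Of these 5 rose (Zbtb46, Ccr7, Flt3, Irf8 and Xcr1), or 45.5% against 13.8% of all genes. Another 3 fell (Cd74, H2-Ab1 and Irf4), or 27.3% against 12%. The sum of the 11 was 5794 to 6496 CPM in KO and 6235 to 6393 CPM in WT. Most of it was Cd74 (mean 2190 CPM in KO and 2697 CPM in WT), H2-Ab1 (1016 and 1428) and Ccr7 (2029 and 1383). Cd209a, of the monocyte-derived type, had 3 to 9 reads per library. Macrophage and monocyte markers, which such cultures also express, summed to 4053 to 4445 CPM in KO and 3614 to 3829 CPM in WT, with 4 of 8 higher and 0 lower.

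In KO, 9 of the 36 replication genes rose and 2 fell. The genes that rose were Mcm2, Mcm5 and Mcm7 of the helicase ring, the loader gene Cdt1, the helicase activator gene Mcm10, the polymerase gene Pola1, the ligase gene Lig1, the ribonucleotide reductase gene Rrm2 and the cyclin gene Ccne1. Those that fell were Pcna, encoding the sliding clamp, and E2f1, encoding the E2F factor. Over all genes tested 25.8% were called in either direction, 13.8% higher and 12% lower, against 30.6% of the replication genes in either direction, 25% higher and 5.56% lower. The share called in either direction was thus near that of all genes. The median log2 fold change was 0.20, against -0.01 over all genes tested, and fold changes ran from -0.40 for Pcna to 1.01 for Rrm2. The 3 KO libraries all lay above the 3 WT libraries in 16 replication genes and all below in 2, where the same held for 20.5% and 20% of all genes. Without WT 2 and KO 1 together, 11 rose and 1 fell, and 10 of these 12 were among the 11 called with all libraries.

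**Figure D1:**
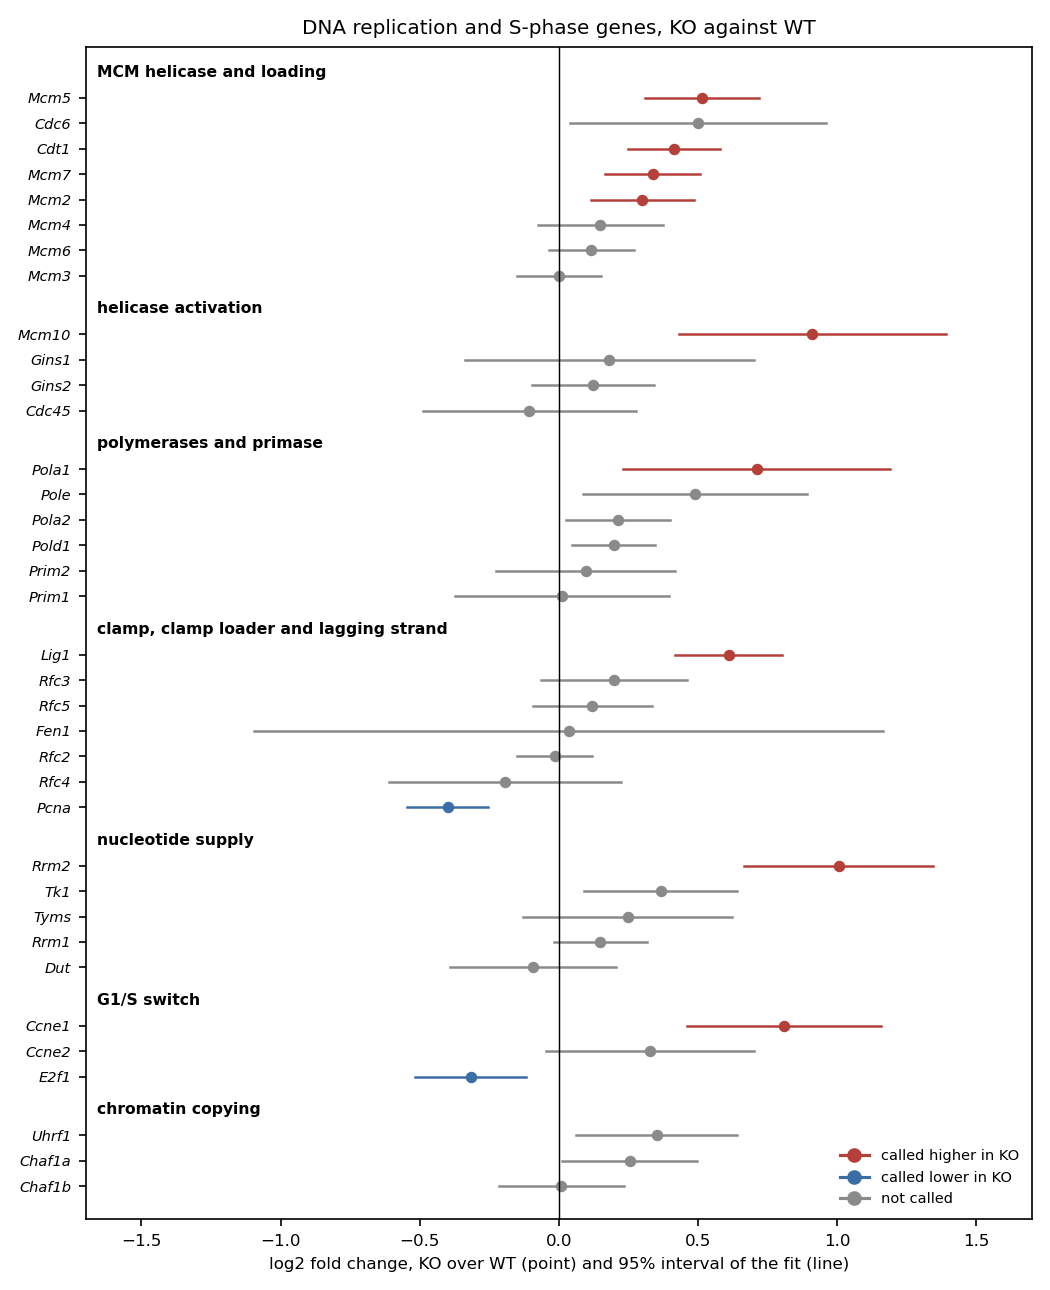
Log2 fold change of KO over WT (point) with the 95% interval of the fit (line) for the 36 replication genes, grouped by role, with genes called higher in red, called lower in blue and not called in grey. The 9 red points lie between 0.30 and 1.01, and the blue points of E2f1 and Pcna at -0.32 and -0.40.

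The median deviation of the 36 genes from the WT mean was 0.15, 0.21 and 0.26 on the log2 scale in KO 1, 2 and 3, and lay between -0.01 and 0.02 in the WT libraries. The WT values lie near 0 partly because deviations were taken from the WT mean, so they do not show the full WT spread. The same median over all genes lay within 0.01 of 0 in all 6 libraries, where TMM scaling brings it. Summed over the group, the level overlapped between genotypes at 934, 996 and 981 CPM in KO and 989, 1002 and 959 CPM in WT, and Pcna alone made up 292 to 324 CPM of it in KO and 384 to 425 CPM in WT. Summed without Pcna, the other 35 genes were at 642, 672 and 668 CPM in KO and at 574, 577 and 575 CPM in WT, and the genotypes did not overlap. Pcna was set aside after its fall was seen, so this sum is a description. In bulk RNA a change in the number of cycling cells and a change in RNA per cell cannot be told apart.

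The promoters printed here are of 4 genes that the results below turn on. Mcm5 and Mcm3 encode subunits of the same ring, of which Mcm5 rose and Mcm3 did not pass the test. Rrm2 had the largest rise of the 36 genes, and Pcna fell. Each run covers 250 bases before to 50 bases after the RefSeq gene start (GRCm38.p6), 5′ to 3′ on the gene's own strand. Capitals mark the E2F-type motif TTTNNCGC and the CCAAT box, each on either strand, and in Mcm5 a match and its reverse overlap. Mcm5 is at chr8:75109259-75109558 on the plus strand, Mcm3 at chr1:20820263-20820562 on the minus strand, Rrm2 at chr12:24708004-24708303 on the plus strand and Pcna at chr2:132253131-132253430 on the minus strand.
Mcm5: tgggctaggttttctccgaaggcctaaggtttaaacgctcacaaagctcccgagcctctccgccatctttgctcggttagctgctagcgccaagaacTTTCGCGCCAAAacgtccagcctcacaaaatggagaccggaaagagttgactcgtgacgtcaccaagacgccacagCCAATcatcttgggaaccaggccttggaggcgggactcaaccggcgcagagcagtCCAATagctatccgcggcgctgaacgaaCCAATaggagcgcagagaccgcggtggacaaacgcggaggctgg
Mcm3: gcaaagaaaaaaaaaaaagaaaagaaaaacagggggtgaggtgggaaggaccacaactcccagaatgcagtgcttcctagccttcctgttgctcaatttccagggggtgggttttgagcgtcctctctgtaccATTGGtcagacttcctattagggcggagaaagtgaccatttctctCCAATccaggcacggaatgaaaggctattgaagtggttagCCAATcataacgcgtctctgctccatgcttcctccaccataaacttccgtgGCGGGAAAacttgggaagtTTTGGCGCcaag
Rrm2: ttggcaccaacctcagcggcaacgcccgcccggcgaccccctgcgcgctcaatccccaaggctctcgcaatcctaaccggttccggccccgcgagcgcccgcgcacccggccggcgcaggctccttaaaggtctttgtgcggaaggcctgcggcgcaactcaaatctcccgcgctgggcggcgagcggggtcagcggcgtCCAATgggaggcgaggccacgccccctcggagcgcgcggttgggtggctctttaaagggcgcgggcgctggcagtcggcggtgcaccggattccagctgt
Pcna: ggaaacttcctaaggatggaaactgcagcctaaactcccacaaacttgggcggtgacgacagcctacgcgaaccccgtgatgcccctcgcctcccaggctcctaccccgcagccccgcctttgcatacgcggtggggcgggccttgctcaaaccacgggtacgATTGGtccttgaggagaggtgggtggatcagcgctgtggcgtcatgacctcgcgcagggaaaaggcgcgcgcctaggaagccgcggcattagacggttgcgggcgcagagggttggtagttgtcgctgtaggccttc

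A RefSeq promoter window was at hand for 29 of the 36 genes, with 34 windows in all, and for all 11 genes that changed. The E2F-type motif TTTNNCGC was found in 13 of the 34 windows (38.2%), against 5.17% of all 32851 windows of the same length. It was in the windows of 12 genes, Mcm3, Mcm5, Mcm6, Mcm7, Cdc6, Cdt1, Pola1, Pold1, Rfc3, Lig1, Tyms and Uhrf1, of which 5 are among the 11 that changed. The CCAAT box was in 50% of the 34 windows, against 37.4% of all windows, and the hypoxia response core ACGTG in 32.4%, against 19.6%. The cell-cycle homology region TTTGAA was in 8.82%, against 17.9%. Both strands were searched, and a match describes letters, not binding. As the printed runs show, Mcm3 has E2F-type matches just after the start and Mcm5 before it, whereas in Rrm2 and Pcna the capitals are CCAAT boxes only. Matches before the start are also found in Pola1, which rose, and in Mcm6 and Cdc6, which did not pass. Matches after it are also found in Cdt1 and Lig1, which rose, and in Pold1 and Tyms, which did not pass. Whether the position bears on the change was not tested.

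In the helicase ring and its loaders, the largest of the role groups, 4 of 8 genes rose (50%, against 13.8% of all genes) and none fell. Mcm5 (chromosome 8, 75109569 to 75128439, plus strand, mm10) had 27.6, 29.8 and 25.6 CPM in KO and 17.7, 21.0 and 19.4 CPM in WT. No KO library came as low as any WT library, and the log2 fold change was 0.51 ± 0.10 (SE), a 1.43-fold rise (edgeR adjusted p = 0.00147). Mcm7 (chromosome 5, 138164583 to 138172422, minus strand) had 32.5, 34.3 and 30.7 CPM in KO and 25.7, 26.5 and 25.0 CPM in WT, also without overlap, and rose 1.26-fold (0.34 ± 0.08, edgeR adjusted p = 0.00703). Mcm2 (chromosome 6, 88883474 to 88898780, minus strand) had 20.8, 22.4 and 22.3 CPM in KO and 18.4, 17.4 and 17.4 CPM in WT and rose 1.23-fold (0.30 ± 0.09, edgeR adjusted p = 0.0206). The separation of Mcm2 was small beside that of Mcm5, and Mcm2 did not pass when KO 2, KO 3 or WT 2 was left out (log2 fold change 0.28, 0.29 and 0.29).

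The other ring subunits did not pass the test. Mcm3 had 43.9, 43.9 and 45.0 CPM in KO and 46.9, 45.1 and 40.7 CPM in WT, a log2 fold change of 0.00 with a 95% interval of -0.15 to 0.15. That interval lies below the interval of Mcm5, which ran from 0.31 to 0.72. Mcm6 overlapped between genotypes at 0.12 ± 0.07, and Mcm4 at 0.15 ± 0.10. In Mcm4 the library WT 3, at 31.1 CPM, lay above every KO library, which had 29.4, 30.9 and 27.6 CPM, while WT 1 and WT 2 had 24.1 and 24.2 CPM. Without WT 3 the log2 fold change of Mcm4 was 0.29 and passed (edgeR adjusted p = 0.0433, where the alternatives spanned 0.0433 to 0.655).

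Scaled to the length of the longest annotated transcript, the 6 subunit genes were not equal in level. In KO they averaged 6.25 CPM per kb for Mcm2, 8.16 for Mcm4, 8.18 for Mcm5, 11.0 for Mcm7, 12.9 for Mcm3 and 14.1 for Mcm6, and in WT 5.07, 7.37, 5.73, 8.68, 12.9 and 13.0 CPM per kb in the same gene order. As a share of the length-scaled ring total, Mcm5 was at 13.5 ± 0.708% in KO and 10.9 ± 1.14% in WT (SD, n = 3 each), and Mcm3 at 21.3 ± 0.769% in KO and 24.4 ± 1.53% in WT. The number of Mcm5 reads per Mcm3 read does not depend on scaling between libraries, and was 0.630, 0.678 and 0.568 in KO and 0.377, 0.467 and 0.477 in WT. This pair was chosen after its values were seen and has no test.

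**Figure D2:**
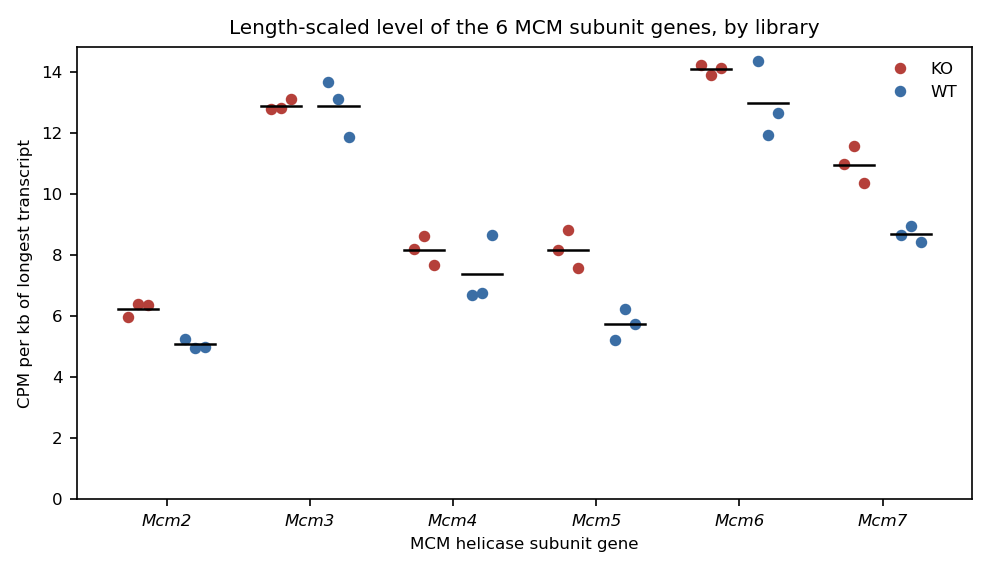
Level of the 6 MCM ring genes in CPM per kb of the longest transcript, with a point per library, KO (red) left of WT (blue), and a bar at the mean of 3 libraries. Mcm2, Mcm5 and Mcm7 separate by genotype, and Mcm3, Mcm4 and Mcm6 overlap.

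Among the loaders, Cdt1, which brings the ring to origins (chromosome 8, 122568015 to 122573554, plus strand), had 49.7, 58.7 and 52.4 CPM in KO and 37.7, 41.8 and 41.1 CPM in WT. The genotypes did not overlap, and Cdt1 rose 1.33-fold (0.41 ± 0.08, edgeR adjusted p = 0.00145). Cdc6, the other loader, was much lower in level, at 3.40, 2.61 and 3.54 CPM in KO and 2.48, 2.33 and 1.91 CPM in WT. Its log2 fold change of 0.50 ± 0.21 was close to that of Mcm5 and did not pass (edgeR adjusted p = 0.104). Of the activators, Mcm10 (chromosome 2, 4989714 to 5012791, minus strand) had 5.43, 5.39 and 4.64 CPM in KO and 2.60, 3.76 and 1.84 CPM in WT, a 1.88-fold rise (0.91 ± 0.22, edgeR adjusted p = 0.00894). WT libraries of Mcm10 differed by more than its KO libraries did. Cdc45 (-0.11 ± 0.18), Gins1 (0.18 ± 0.24) and Gins2 (0.12 ± 0.10), whose proteins join the ring to form the active helicase, overlapped between genotypes and did not pass.

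Of 6 polymerase and primase genes, 1 passed (16.7%, against 25.8% of all genes). Pola1, the catalytic subunit of polymerase α (chromosome X, 93304767 to 93632155, minus strand), had 6.25, 7.34 and 5.10 CPM in KO and 2.66, 5.18 and 3.61 CPM in WT. WT 2 lay just above KO 3, and the gene rose 1.64-fold (0.71 ± 0.22, edgeR adjusted p = 0.0316). It did not pass without KO 2 (0.58), WT 1 (0.51) or WT 3 (0.69). Pola2, encoding its regulatory subunit, was higher in every KO library at 23.8 ± 1.40 CPM in KO and 20.5 ± 0.843 CPM in WT (SD, n = 3 each), without passing (0.21 ± 0.09, edgeR adjusted p = 0.0894). Pold1, for the catalytic subunit of polymerase δ, had 47.5, 49.3 and 51.4 CPM in KO and 45.3, 40.2 and 43.7 CPM in WT. Its groups did not overlap, and it missed the threshold narrowly (0.20 ± 0.07, edgeR adjusted p = 0.0514). It passed when scaled by library size alone (0.23) or without KO 1 (0.23). Pole, for polymerase ε, stood at 0.49 ± 0.19 and did not pass, and passed without KO 1 (0.59) or without WT 2 and KO 1 together (0.72). The primase genes Prim1 (0.01 ± 0.18) and Prim2 (0.10 ± 0.15) overlapped between genotypes.

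Pcna was by far the most abundant of the 36 genes and went down. The gene (chromosome 2, 132249162 to 132253314, minus strand) had 292, 324 and 312 CPM in KO and 415, 425 and 384 CPM in WT. Every KO library lay below every WT library, and the fall was 1.32-fold (-0.40 ± 0.07 on the log2 scale, edgeR adjusted p = 0.000761). Pcna was called lower under all 16 alternatives tried, at log2 fold changes of -0.32 to -0.43. Per kb of transcript it stood at 204 CPM in KO and 269 CPM in WT, where Cdt1, the next of the 36 in both genotypes, had 19.9 and 14.9 CPM per kb. The processed copy Pcna-ps2 had 65 to 78 reads in KO and 72 to 124 in WT, against 5333 to 5470 Pcna reads in KO and 5636 to 7021 in WT.

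Lig1, the ligase that seals Okazaki fragments and binds PCNA, went the other way. The gene (chromosome 7, 13277283 to 13311433, plus strand) had 22.9, 25.7 and 26.2 CPM in KO and 16.1, 16.4 and 16.4 CPM in WT, and rose 1.53-fold (0.61 ± 0.09, edgeR adjusted p = 0.000225). Reads of Lig1 per Pcna read were 0.0784, 0.0793 and 0.0838 in KO and 0.0389, 0.0385 and 0.0428 in WT, a ratio 2.01-fold higher in KO, given as a description because the pair was chosen after its values were seen. The genes of the clamp loader did not pass, with Rfc2 at -0.01 ± 0.06, Rfc3 at 0.20 ± 0.12, Rfc4 at -0.19 ± 0.19 and Rfc5 at 0.12 ± 0.10. Rfc2, the most precisely measured of these, has a 95% interval of -0.15 to 0.12. Fen1, the flap endonuclease gene, had only 7, 10 and 14 reads in KO and 4, 8 and 15 in WT, so its interval of -1.10 to 1.16 is wide. Fen1 shares part of its span with Tmem258 on the other strand, and whether reads there were counted for it is not given in the sources used here.

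**Figure D3:**
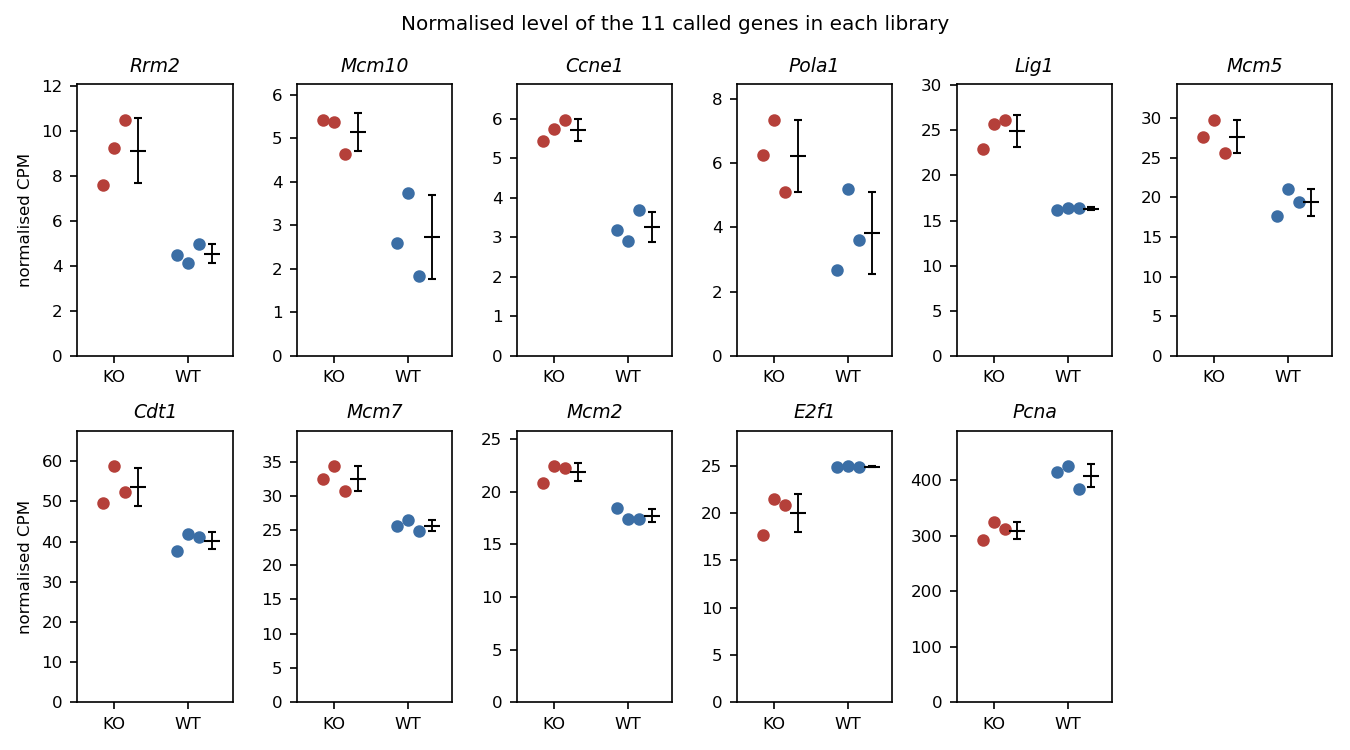
Normalised CPM in each library (points) and mean with SD (bar beside them) for the 11 replication genes that changed, with KO left of WT and an axis from 0. Genotypes overlap in Pola1 alone, where WT 2 lies at 5.18 CPM and KO 3 at 5.10 CPM.

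Nucleotide supply genes were led by Rrm2, the subunit of ribonucleotide reductase that is made in S phase. The gene (chromosome 12, 24708241 to 24714146, plus strand) had 7.62, 9.24 and 10.5 CPM in KO and 4.49, 4.14 and 4.98 CPM in WT. All KO libraries lay above all WT libraries, and the rise was 2.01-fold (1.01 ± 0.16, edgeR adjusted p = 0.00042). Rrm1, its partner subunit, had 31.1, 33.6 and 35.2 CPM in KO and 29.9, 29.7 and 30.6 CPM in WT, which do not overlap but did not pass (0.15 ± 0.08, edgeR adjusted p = 0.179). Reads of Rrm2 per Rrm1 read, a pair chosen after its values were seen, were 0.245, 0.275 and 0.298 in KO and 0.150, 0.140 and 0.163 in WT.

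Tk1, for the thymidine kinase of dividing cells, had 21.8, 21.1 and 18.0 CPM in KO and 12.6, 17.1 and 17.7 CPM in WT. The groups nearly touched and the test was just missed (0.37 ± 0.13, edgeR adjusted p = 0.0505, where the alternatives spanned 0.00912 to 0.203). Tk1 passed with 5 other ways of scaling, filtering or testing and without WT 3. Tyms (0.25 ± 0.17), for thymidylate synthase, and Dut (-0.09 ± 0.14), for the enzyme that clears dUTP, overlapped between genotypes.

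At the G1/S switch, a cyclin E gene and E2f1 moved in opposite directions. Ccne1 (chromosome 7, 38097984 to 38107534, minus strand), whose cyclin activates CDK2 at the start of S phase, had 5.43, 5.74 and 5.97 CPM in KO and 3.19, 2.91 and 3.68 CPM in WT, and rose 1.75-fold (0.81 ± 0.16, edgeR adjusted p = 0.0026). Ccne2, which encodes the related cyclin E2, was higher in every KO library at 4.24 ± 0.162 CPM in KO and 3.37 ± 0.444 CPM in WT (SD, n = 3 each) but did not pass (0.33 ± 0.17, edgeR adjusted p = 0.19). E2f1 (chromosome 2, 154559407 to 154569892, minus strand) had 17.7, 21.5 and 20.8 CPM in KO and 24.9 CPM in each WT library. It fell 1.25-fold (-0.32 ± 0.09, edgeR adjusted p = 0.0226), with KO 1 lowest. The call of E2f1 was lost when any library other than KO 2 was left out, at -0.23 without KO 1 and between -0.31 and -0.35 without KO 3, WT 1, WT 2 or WT 3, and was lost without WT 2 and KO 1 together (-0.23).

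None of the 3 genes that copy chromatin marks and histones passed, where 25.8% of all genes did. Uhrf1, which recruits the maintenance DNA methyltransferase, had 13.2, 17.1 and 17.7 CPM in KO and 12.4, 14.3 and 10.7 CPM in WT (0.35 ± 0.13, edgeR adjusted p = 0.0713). KO 1 lay below WT 2 there, and Uhrf1 passed without KO 1 (0.48), without WT 2 (0.46), without both (0.58), scaled by library size alone (0.39) and with no low-count filter (0.37). Chaf1a and Chaf1b, subunits of the CAF-1 histone chaperone, also stayed below the threshold, with Chaf1a at 10.6 ± 0.449 CPM in KO and 8.91 ± 0.259 CPM in WT (0.25 ± 0.11) and Chaf1b at 12.1 ± 0.763 CPM in KO and 12.0 ± 0.545 CPM in WT (0.01 ± 0.10; SD over 3 libraries for levels).

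Precision followed the level. The 11 genes under 5 CPM had a median SE of 0.19 and 2 calls, the 9 genes between 5 and 15 CPM a median SE of 0.13 and 2 calls, and the 16 genes over 15 CPM a median SE of 0.08 and 7 calls. Genes such as Cdc6 and Pole, which did not pass, have intervals (0.04 to 0.96 and 0.09 to 0.89) that take in the fold changes of genes that did. Of the 36 genes, 12 overlap another protein-coding gene, among them Mcm7, Cdt1 and Lig1 of those that changed, and their single values are uncertain where reads in the shared stretch could be dropped or split.

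Other genes of the replication machinery, from a list of 50 with no member of the 36, were tested as well. Of these 50, 7 rose and 2 fell, with a median log2 fold change of 0.04, so 18% were called, against 25.8% of all genes. Timeless, which protects stalled forks, had 6.96, 10.8 and 9.05 CPM in KO and 3.73, 4.86 and 3.82 CPM in WT, a 2.16-fold rise (edgeR adjusted p = 0.000639). Brca1, of the recombination repair of broken forks, rose 1.55-fold. Hells, for a chromatin remodeller, rose 1.46-fold and did not pass without KO 2 (0.52) or WT 3 (0.49), without WT 2 and KO 1 together (0.59) or with the DESeq2 Wald test (0.55). Rpa3, of the single-strand binding complex, fell 1.31-fold, and did not pass without KO 2, KO 3, WT 1 or WT 2 (-0.30 to -0.40), with an offset for GC and length (-0.18) or without WT 2 and KO 1 together (-0.30).

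Of 28 genes of nucleotide synthesis and dNTP control, 3 rose and 2 fell, with a median of 0.08. Thus 17.9% were called, against 25.8% of all genes. Dck, the deoxycytidine kinase that salvages nucleosides, had 73.8, 81.7 and 72.0 CPM in KO and 27.6, 27.3 and 28.0 CPM in WT, a 2.74-fold rise (edgeR adjusted p = 5.71e-09). Samhd1, the dNTP-degrading enzyme that restricts retroviruses in myeloid cells and is interferon-inducible, had 776, 819 and 789.5 CPM in KO and 518, 500 and 525 CPM in WT, a 1.54-fold rise (edgeR adjusted p = 2.59e-06). Both stood far outside the spread between libraries. Impdh1, of guanine nucleotide synthesis, rose 1.25-fold, and Adss, of adenine nucleotide synthesis, fell 1.31-fold. Ctps2, a CTP synthase gene, fell 1.18-fold and did not pass without KO 2, WT 2 or WT 3 (-0.19 to -0.21) or without WT 2 and KO 1 together (-0.18).

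Of 12 tested genes for G1/S cyclins, CDKs and their phosphatases, 3 rose and 0 fell (median 0.08). That is 25% called, near the 25.8% of all genes. Ccnd2, encoding cyclin D2, had 17.8, 27.0 and 20.9 CPM in KO and 6.80, 7.64 and 7.71 CPM in WT, a 2.97-fold rise (edgeR adjusted p = 4.55e-06), and Ccnd1 rose 1.82-fold. Ccna2, the cyclin of S and G2 phase, rose 1.81-fold and did not pass without KO 2 (0.68) or KO 3 (0.86). In the RB, E2F and DP family 2 of 15 rose and 0 fell (median 0.08), or 13.3% called, against 25.8% of all genes. E2f7, a repressor of the family, had 0.932, 1.54 and 1.51 CPM in KO and 0.355, 0.388 and 0.682 CPM in WT (2.79-fold higher, edgeR adjusted p = 0.0149) and did not pass without KO 2, KO 3, WT 1 or WT 2 (1.31 to 1.38). Rbl1, for the RB relative p107, rose 1.23-fold and did not pass without KO 2, KO 3 or WT 1 (0.27 to 0.31).

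Of 16 genes for CDK inhibitors and other arrest genes, 6 rose and 4 fell (median 0.11). That is 37.5% and 25%, against 13.8% and 12% of all genes, and 62.5% called in either direction, against 25.8%. Cdkn1a, encoding the CDK inhibitor p21, which also binds PCNA, had 658, 697 and 700.5 CPM in KO and 538, 487 and 499 CPM in WT, a 1.35-fold rise (edgeR adjusted p = 0.00018). Btg2, an antiproliferative gene, rose 1.65-fold, Cdkn2c, for the CDK4 and CDK6 inhibitor p18, 1.45-fold, and the stress gene Sesn2 1.19-fold. Cdkn1b, encoding the CDK inhibitor p27, had 77.9, 71.1 and 79.6 CPM in KO and 96.7, 92.5 and 92.8 CPM in WT, a 1.23-fold fall (edgeR adjusted p = 0.00218). Ccng2, of an atypical cyclin linked to quiescence, fell 1.81-fold, Cdkn1c, for the inhibitor p57, 1.81-fold and Sesn1 1.24-fold. Inhibitor genes thus changed both ways, and none of these 8 genes lost its call under the 16 alternatives.

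Genes of G2 and mitosis, the phases after replication, had 15 of 30 tested genes that rose and 0 that fell. That is 50% and 0%, against 13.8% and 12% of all genes, and the median log2 fold change was 0.58. Top2a, for the topoisomerase that untangles copied DNA, had 16.9, 19.4 and 19.7 CPM in KO and 9.40, 8.74 and 9.27 CPM in WT, and rose 2.04-fold (edgeR adjusted p = 8.57e-06). Cenpf, for a centromere protein, and the genes Birc5 and Ccnb1 also rose, by 5.16, 2.02 and 2.48-fold, with 0.259 to 2.01 CPM in the WT libraries. Whether this list differs from the replication genes was not tested. Over all 6 of these lists together, 36 rose and 8 fell, against 33 and 7 without WT 2 and KO 1 together. With all libraries 29.1% of these genes were called, near the 25.8% of all genes, with 23.8% higher and 5.3% lower.

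**Figure D4:**
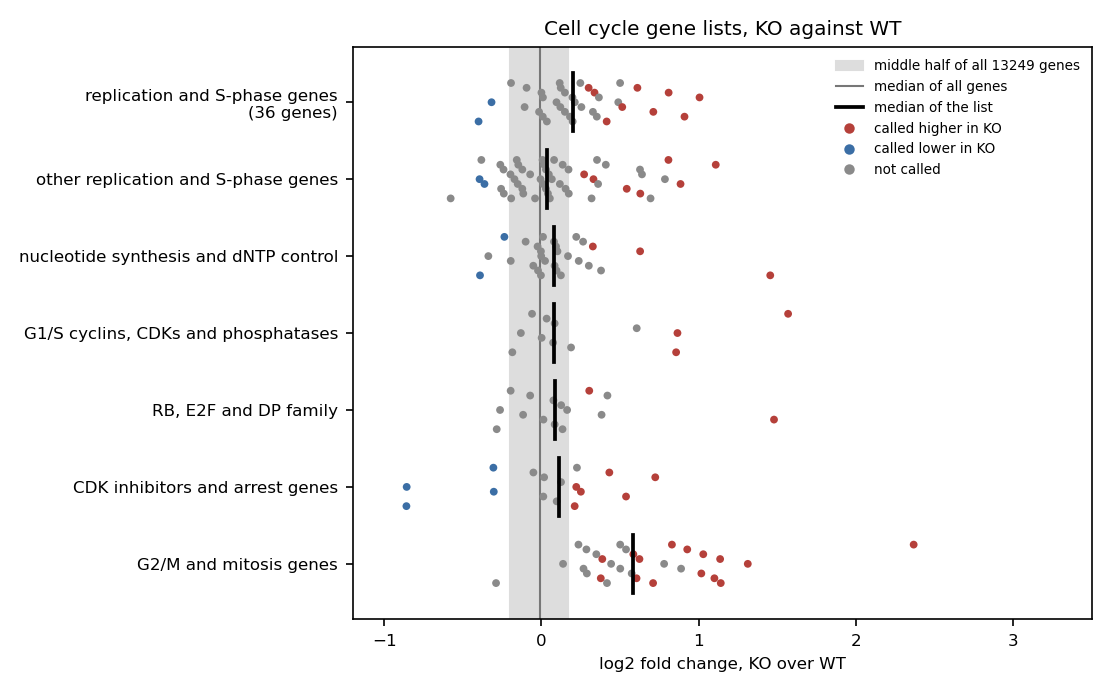
Log2 fold change of KO over WT for each tested gene of the 36 replication genes and 6 further cell cycle lists (points, red for called higher, blue for called lower, grey for not called), with the median of each list (black bar) and the median and interquartile range of all 13249 genes (grey line and band). The median of the G2/M and mitosis list lies at 0.58, that of the 36 replication genes at 0.20, and those of the other 5 lists between 0.04 and 0.11.

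Markers of precursor cells and of other cell types were examined as well. Of 8 haematopoietic progenitor markers, 4 were tested and all 4 rose (Kit, Cd34, Gata2 and Meis1), against 13.8% of all genes. The summed level of the 4 was 92.0, 86.3 and 86.4 CPM in KO and 58.9, 52.9 and 58.1 CPM in WT. Kit made up most of that sum. The granule genes Mpo, Prtn3 and Ctsg, which define myeloid progenitors, and Hoxa9 had at most 12 reads in any library. Of 5 mast cell and basophil markers, 3 were tested and 2 rose (66.7%, against 13.8% of all genes). The sum of these 3 was 3.49 to 4.41 CPM in KO and 1.16 to 2.25 CPM in WT. Fcer1a had at most 1 read in any library. Of 8 neutrophil markers, 6 were tested, 2 rose (33.3%, against 13.8% of all genes) and 1 fell (16.7%, against 12%). The neutrophil sum was 422 to 479 CPM in KO and 618 to 691 CPM in WT. Most of it was Mmp8, with Ly6g at 4 reads or fewer per library. Among T cell and B cell markers 1 each was tested and none was called, and no NK cell or erythroid marker had enough reads to test. The part of these cells in the results on replication genes was not tested.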

How the data were processed

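RNA was measured by sequencing in 6 libraries of bone-marrow-derived dendritic cells, 3 KO and 3 WT. The deposited table holds whole read counts per gene symbol, which the authors left unnormalized. The submitters' processing notes name the build mm10 and, with no roles, HTSeq, DESeq2, SAMtools, HISAT, HISAT2 and TopHat2. Annotation, strand setting and handling of multiply aligned reads are not given there.

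Of 30587 rows, filterByExpr (minimum count 10) kept 13249, with 99.75% or more of the counts in each library. For 23 repeated symbols, none of them of a gene listed here, the name went to the row of highest count. TMM factors scaled the counts, and edgeR 4.0.16 (R 4.3.3) tested them by its quasi-likelihood F test, with genotype as the only term and Benjamini-Hochberg adjustment over all genes tested. SE is the log2 fold change divided by the square root of F. The spread between libraries of a genotype beyond counting error, as edgeR's common coefficient of variation, was 8.48%. The procedure was run on counts simulated from its own fitted model with known changes. That check does not cover differences between libraries outside the model. Coordinates and transcript lengths are from GENCODE M21 and promoters from RefSeq, both of GRCm38 (mm10).

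The 36 genes and the other lists were chosen with earlier results of these data known. Every member is named. Of each other list, up to 4 called genes per direction are named, by lowest p, apart from 2 that are not reported here. Genes of the marker lists, Epas1 and Pcna-ps2 are given as checks. Alternatives were the DESeq2 1.42.0 Wald test, no low-count filter, a filter of at least 10 counts in all libraries of 1 genotype, scaling by DESeq2 size factors or by library size alone, limma-voom (limma 3.58.1), the replicate number as a block, a GC and length offset (98.5% of tested genes had both), repeated symbols summed, and fits without each library or without WT 2 and KO 1. No 2 replicates agreed within sampling noise, with a chi-square per degree of freedom of at least 4.13. Permutation of 3 against 3 libraries allows no p under 0.1, so p-values rest on the model.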

Additional observations from a re-analysis of the deposited data

How the results depend on the processing

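The 9 replication genes higher in KO numbered 9 to 12 under the alternatives that kept all libraries, and 7 to 12 with 1 library left out. The 2 lower numbered 2 under those that kept all libraries, 1 to 2 with 1 library left out, and 1 without WT 2 and KO 1 together. The median log2 fold change of the 36 genes ran from 0.17 (without WT 2) to 0.26 (without WT 3). Of the 11 calls, Mcm5, Mcm7, Cdt1, Mcm10, Lig1, Rrm2, Ccne1 and Pcna held under all 16 alternatives, and Mcm2, Pola1 and E2f1 did not; the cause was not tested. Over all genes, the 1826 higher and 1586 lower calls ran from 1182 to 1992 and from 945 to 1622 with 1 library left out, lowest without KO 3. Scaling by library size alone shifted the median gene by 0.03 on the log2 scale. With 1 library left out, the 36 higher calls of the other cell cycle lists ran from 22 (without KO 3) to 39 and the 8 lower from 6 to 10, and the lower calls over all genes numbered 1027 without WT 1. Without the low-count filter, adjusted p-values are not comparable with those of the other fits. With the replicate number as a block, 9 replication genes rose and 2 fell, all 11 of the calls without it, and over all genes 1741 rose and 1506 fell. Deviations of same-numbered libraries correlated at 0.0146, -0.11 and 0.0799, and not every library correlated best with its own number, so the numbers are not taken as pairs. Depth limits what can be said of the genes under 5 CPM.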
